A study of Homo sapiens with 20 samples.

Results

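The mRNAs of Polycomb repressive complex 2 (PRC2), the complex that methylates lysine 27 of histone H3, were followed through an RNA-seq series of K562, a human erythroleukemia cell line. The members were taken by gene symbol: EZH2, EZH1, EED, SUZ12, RBBP4, RBBP7, JARID2, MTF2, PHF19 and AEBP2, which are 10 of the 57736 genes in the drug tables and of the 53150 genes obtained from the excision tables. All 10 were found in both and all 10 passed the filter on low counts, the smallest value being 332 counts for AEBP2. The series holds 20 libraries of total RNA with ribosomal RNA removed, in 10 groups of n = 2 biological replicates by the series' text. In the drug arm K562 cells received DMSO, 5 uM GSK343 or 100 uM X5050, each for 72 h, or GSK343 and X5050 together at these doses for 8, 24 or 72 h. GSK343 inhibits the EZH2 enzyme and X5050 inhibits REST, a repressor of neuronal genes. In the excision arm K562 cells carried an empty vector (EV) or had lost silencer 1 (S1KO), silencer 2 (S2KO) or both (DKO) through CRISPR. Whether an excised line was 1 clone is not given in the sources used here. The only DMSO group was taken at 72 h, so the 8 h and 24 h values have no DMSO control of their own time, and time and treatment cannot be told apart in them.

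In PRC2 the catalytic subunit is EZH2 or its paralog EZH1, and neither works without EED, which binds the methylated histone tail, and SUZ12, the scaffold on which the complex is built. RBBP4 or RBBP7, histone-binding proteins that are also subunits of chromatin assembly and deacetylase complexes, complete the core. Accessory subunits divide the complex into forms that exclude each other: a Polycomb-like protein such as MTF2 or PHF19 in one, JARID2 with AEBP2 in the other. EZH2 is known to be abundant in dividing cells and EZH1 in resting ones, and in blood cells the methylation that both enzymes lay down keeps genes of other lineages silent. GSK343 acts on the enzyme's activity, so the mRNA levels below say nothing of the methylation itself.

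Levels in the drug arm are counts scaled to each library's total (CPM) after normalization for library composition, and a change is a fitted log2 fold change ± its standard error (SE). A change was called at an adjusted p under 0.05 in edgeR's quasi-likelihood test with Benjamini-Hochberg adjustment over all tested genes, and "rose" and "fell" are used of called changes only. Libraries held 22925617 to 38177320 gene counts in the drug arm and 55913561 to 98507788 estimated counts in the excision arm. With 2 libraries a side, permuting labels exactly gives no p below 0.333, so each p rests on the fitted variance. The erythroid genes GATA1 (104 to 220 CPM over the 12 drug libraries) and TAL1 (124 to 265 CPM) were present throughout, while the summed CPM of 8 lymphoid markers stayed at 4.52 to 10.3 and that of 8 myeloid markers at 12.8 to 34.5. A list of 8 fibroblast and epithelial markers summed to 241 to 746 CPM, nearly all of it from KRT8 (172 to 700.1 CPM) and EPCAM (24.9 to 65.9 CPM), with PDGFRA at 0 in all drug libraries. The sum of 12 erythroid markers ranged from 1831 to 6326 CPM in the drug arm and from 2900 to 20230 CPM in the excision arm. There the lymphoid markers summed to 7.70 to 19.0 CPM, the myeloid ones to 21.9 to 91.3 and the fibroblast and epithelial ones to 205 to 417. Of this last list COL1A2 ran from 0.342 to 124.7 CPM in the excision arm. Of its 6 tested markers 2 rose and 0 fell in DKO (5.41% of all tested genes higher and 3.35% lower), the largest change being 8.20. The part of these lists in the results below was not tested. In such bulk libraries fewer expressing cells and less RNA per cell cannot be told apart.

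Promoter sequences are shown for SUZ12 and EZH1, whose mRNAs moved in opposite directions at 8 h of both drugs, and for EZH2, the drug target. Each run is the 250 bases upstream of a RefSeq start site (GRCh38.p14), 5′ to 3′ on the gene's strand, with matches to an E2F motif in capitals.
SUZ12 (chr17:31936757-31937006, plus strand): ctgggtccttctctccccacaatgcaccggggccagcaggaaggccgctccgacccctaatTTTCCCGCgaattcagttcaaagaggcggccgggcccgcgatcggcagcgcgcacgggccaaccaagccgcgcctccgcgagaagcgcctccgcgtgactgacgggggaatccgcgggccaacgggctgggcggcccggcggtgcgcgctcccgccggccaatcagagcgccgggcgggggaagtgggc
EZH1 (chr17:42745041-42745290, minus strand): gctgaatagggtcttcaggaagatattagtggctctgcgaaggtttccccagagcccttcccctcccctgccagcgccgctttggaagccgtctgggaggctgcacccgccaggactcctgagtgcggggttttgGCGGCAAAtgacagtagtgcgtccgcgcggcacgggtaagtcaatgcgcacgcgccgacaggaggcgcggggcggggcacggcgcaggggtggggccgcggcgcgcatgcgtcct
EZH2 (chr7:148884292-148884541, minus strand): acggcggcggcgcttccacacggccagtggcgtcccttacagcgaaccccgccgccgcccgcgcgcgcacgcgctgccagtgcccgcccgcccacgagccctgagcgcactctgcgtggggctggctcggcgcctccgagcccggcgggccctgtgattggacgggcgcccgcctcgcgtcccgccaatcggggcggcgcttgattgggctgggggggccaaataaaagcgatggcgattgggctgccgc
RefSeq gave 15 start sites for the 10 genes. The E2F motif was searched as TTTCCCGC, TTTCGCGC, TTTGCCGC or TTTGGCGC on both strands. It was found in 4 of the 15 windows, once each in SUZ12, EZH1, AEBP2 and 1 of the windows of PHF19, and in 2.79% of 35116 windows of the same length over all genes. With the first T of each form dropped, which also takes in every match of the longer forms, 7 of the 15 windows matched, against 10.9%, and RBBP4 and RBBP7 joined the list. The windows of RBBP4 overlap and share the same TTGGCGC site, so that site counts in both and the 15 windows are not all separate. The EZH2 window shown, 1 of 2 for that gene, holds no match.

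The other motifs searched on both strands in the same windows were matched as follows. CCAAT, which has so few letters that 32.0% of all windows hold it, lay in 10 of 15 windows, from EED, EZH2, JARID2, PHF19, RBBP4, RBBP7 and SUZ12. The overlapping windows of RBBP4 share such a site. The SP1 form GGGGCGGGG lay in 6 windows (15.1% of all), from EZH1, PHF19, RBBP4 and RBBP7. CACGTG was in 1 window of RBBP4 (6.34% of all), the cell cycle homology motif (TTTGAA, or with C in the third place) in that of SUZ12 (14.3%) and TGACGTCA in 1 of JARID2 (1.65%). No window of the 10 genes held the NRF1 motif (1.03% of all), the ETS form CCGGAAGT (3.42%) or the YY1 motif (0.248%). These searches were chosen with the expression values known, and a match describes letters only.

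With both drugs most of the subunit genes were higher by 24 h and lower again by 72 h, and EZH1 took the opposite course. At 24 h, 8 of the 10 rose against DMSO and EZH1 fell (22.0% of all tested genes higher and 21.1% lower). Between 24 h and 72 h, 8 fell and EZH1 rose (24.1% of all tested genes higher and 21.8% lower). At 8 h, 5 rose and 2 fell (21.8% of all tested genes higher and 21.2% lower), and at 72 h 2 rose and 4 fell (19.2% of all tested genes higher and 17.3% lower). From 8 h to 24 h, 5 rose and 1 fell (18.4% of all tested genes higher and 17.4% lower). The median change of the members was 0.31 at 8 h, 0.63 at 24 h and -0.11 at 72 h against DMSO, beside medians over all tested genes of -0.01, -0.02 and 0.01. With the GC trend removed, as described below, the medians of the members were 0.17, 0.32 and -0.27. Without replicate 2 of DMSO they were 0.20 at 8 h and 0.00 at 72 h, so the 72 h median has no settled sign. The comparisons with DMSO share the same 2 control libraries.

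The single drugs moved few of these genes. GSK343 changed 1 member, EZH1, which fell (9.12% of all tested genes higher and 3.31% lower). X5050 changed 3, with PHF19 higher and EZH1 and RBBP4 lower (5.34% of all tested genes higher and 7.23% lower). With RLE size factors the 3 were PHF19 and MTF2 higher and EZH1 lower. With the GC trend removed GSK343 gave 0 higher and 2 lower among the members, and the shares over all tested genes turned to 7.40% higher and 12.5% lower. The count of 1 member in 10 with GSK343 is close to the shares over all tested genes, and that of 3 in 10 with X5050 is above them. The X5050 count was 0 when fitted on the groups compared alone. Neither count is a result about the members. Against GSK343 alone, both drugs at 72 h gave 4 members higher and 1 lower (18.9% of all tested genes higher and 20.5% lower). Against X5050 alone they gave 2 higher and 3 lower (17.5% of all tested genes higher and 12.8% lower, turning to 2304 genes higher and 4134 lower with the GC trend removed). Directly compared, X5050 had 3 members above GSK343 and none below (6.85% of all tested genes higher and 14.3% lower). With the GC trend removed that comparison had 7 higher and 0 lower among the members, beside 20.4% higher and 10.6% lower over all tested genes. The test of the interaction, the change with both drugs less the sum of the changes with each, called 4 members, 2 positive and 2 negative (for all tested genes, 9.75% positive and 9.04% negative).

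**Figure D1:**
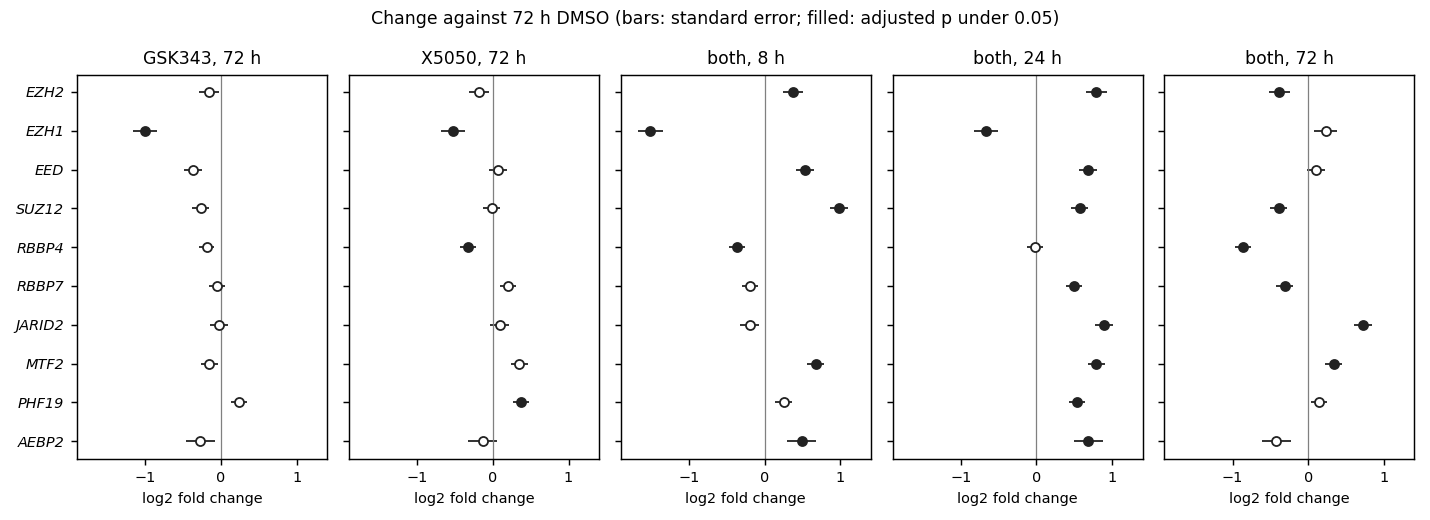
Log2 fold change against 72 h DMSO (horizontal axis) of each PRC2 gene in the 5 treated groups, with SE as bars; filled points have an adjusted p under 0.05. At 24 h of both drugs 8 of 10 genes lie to the right and EZH1 to the left, while with GSK343 alone the only filled point is EZH1.

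EZH1, the catalytic paralog linked to resting cells, had the largest change of any member against DMSO, a fall at 8 h of both drugs. It had 86.0 and 61.3 CPM in the DMSO pair, 42.0 and 31.3 with GSK343 and 47.6 and 54.4 with X5050. With both drugs it had 26.4 and 25.4 CPM at 8 h, 45.7 and 46.9 at 24 h and 83.7 and 88.7 at 72 h. Every library treated with a single drug, or with both for 8 h or 24 h, lay below both DMSO libraries, and the 72 h libraries of both drugs overlapped them. The change was -1.01 ± 0.16 (SE), edgeR adjusted p = 0.000669, with GSK343. At 8 h it was -1.51 ± 0.16 (adjusted p = 3.35e-06) and at 24 h -0.67 ± 0.16 (adjusted p = 0.00281). The 24 h value shrank to -0.41 ± 0.15 (adjusted p = 0.0422) without replicate 1 of DMSO, the higher of the DMSO pair. These 3 falls stayed called with each library left out and in the other alternative fits. With X5050 it was -0.53 ± 0.16 (adjusted p = 0.0379), a call that was lost without replicate 1 of DMSO (0.263), without replicate 1 or 2 of X5050 (0.281 and 0.0649), with the GC trend removed (0.0546) and when fitted on the groups compared alone (0.164).

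After 8 h EZH1 rose again under both drugs. From 8 h to 24 h it rose by 0.84 ± 0.16 (adjusted p = 0.000737) and from 24 h to 72 h by 0.90 ± 0.16 (adjusted p = 0.000249). At 72 h it stood at 0.23 ± 0.16 (adjusted p = 0.277) against DMSO, which became a call only without replicate 1 of DMSO (0.0204). It was higher with both drugs than with GSK343 alone by 1.23 ± 0.16 (adjusted p = 2.19e-05) and than with X5050 alone by 0.76 ± 0.16 (adjusted p = 0.00179), and the 72 h libraries of both drugs lay above all 4 single-drug libraries. The interaction was 1.76 ± 0.22 (adjusted p = 0.000117): EZH1 fell with each drug alone, while the change with both was not a call. X5050 left EZH1 above GSK343 by 0.48 ± 0.16 (adjusted p = 0.0427), lost without replicate 2 of GSK343 (0.212) and without replicate 2 of X5050 (0.0831), and larger without replicate 1 of GSK343, 0.76 ± 0.18 (adjusted p = 0.0109), or with the GC trend removed, 0.76 ± 0.15 (adjusted p = 0.00131).

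EZH2, the main methyltransferase and the target of GSK343, had no call with either single drug. Its libraries had 163 and 122 CPM in DMSO, 141 and 114 with GSK343 and 129.9 and 121 with X5050. With both drugs the values were 183 and 185 at 8 h, 247 and 245 at 24 h and 108 and 111 at 72 h. The single-drug values overlapped those of DMSO, the 8 h and 24 h pairs lay above them, and the 72 h pair lay below them. At 24 h EZH2 was up by 0.79 ± 0.13 (adjusted p = 0.000198) and from there to 72 h it fell by 1.17 ± 0.14 on the log2 scale (adjusted p = 5.36e-06), calls that held in all alternative fits. With GSK343 it had -0.15 ± 0.13 (adjusted p = 0.514), which was 0.07 without replicate 1 of DMSO and -0.35 without replicate 2. With X5050 it had -0.18 ± 0.13 (adjusted p = 0.433), and 0.05 and -0.37 without these libraries. X5050 against GSK343 gave -0.03 ± 0.13 (adjusted p = 0.921). Both drugs at 72 h gave -0.23 ± 0.13 (adjusted p = 0.193) against GSK343 and -0.20 ± 0.13 (adjusted p = 0.28) against X5050, and the interaction was -0.05 ± 0.19 (adjusted p = 0.89). The smaller called changes lay nearer the threshold. The 8 h rise of 0.37 ± 0.13 (adjusted p = 0.0337) was lost without replicate 1 or 2 of both drugs at 8 h (0.0892 and 0.114), without replicate 2 of DMSO (0.278), with the GC trend removed (0.263) and when fitted on the groups compared alone (0.119), and grew to 0.59 ± 0.13 (adjusted p = 0.00132) without replicate 1 of DMSO. The 72 h value, -0.38 ± 0.13 (adjusted p = 0.0354), was lost without replicate 1 of DMSO (0.323), without replicate 1 or 2 of both drugs at 72 h (0.153 and 0.111) and when fitted on the groups compared alone (0.106), kept its size without either of these 72 h libraries (-0.36 and -0.39) and was -0.58 ± 0.12 (adjusted p = 0.00132) without replicate 2 of DMSO. The step from 8 h to 24 h, 0.42 ± 0.13 (adjusted p = 0.0224), lost its call with any 1 of its 4 libraries left out, while its size stayed between 0.40 and 0.44 (adjusted p = 0.0853, 0.0941, 0.105 and 0.117).

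The balance of the paralogs followed these courses and is given as a description, with no test. Reads of EZH2 per read of EZH1, not corrected for transcript length, were 1.89 and 1.99 in the DMSO pair, 3.36 and 3.65 with GSK343 and 2.73 and 2.23 with X5050. Both drugs gave 6.96 and 7.27 at 8 h, 5.41 and 5.21 at 24 h and 1.29 and 1.25 at 72 h. The replicates of each group were close, and the 6 groups did not overlap in this ratio. The DMSO pair of EZH1 (SD 17.5 CPM) and of EZH2 (SD 28.9 CPM) differed in the same direction, replicate 1 being the higher for both genes. The ratio was lowest after 72 h of both drugs and highest after 8 h.

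**Figure D2:**
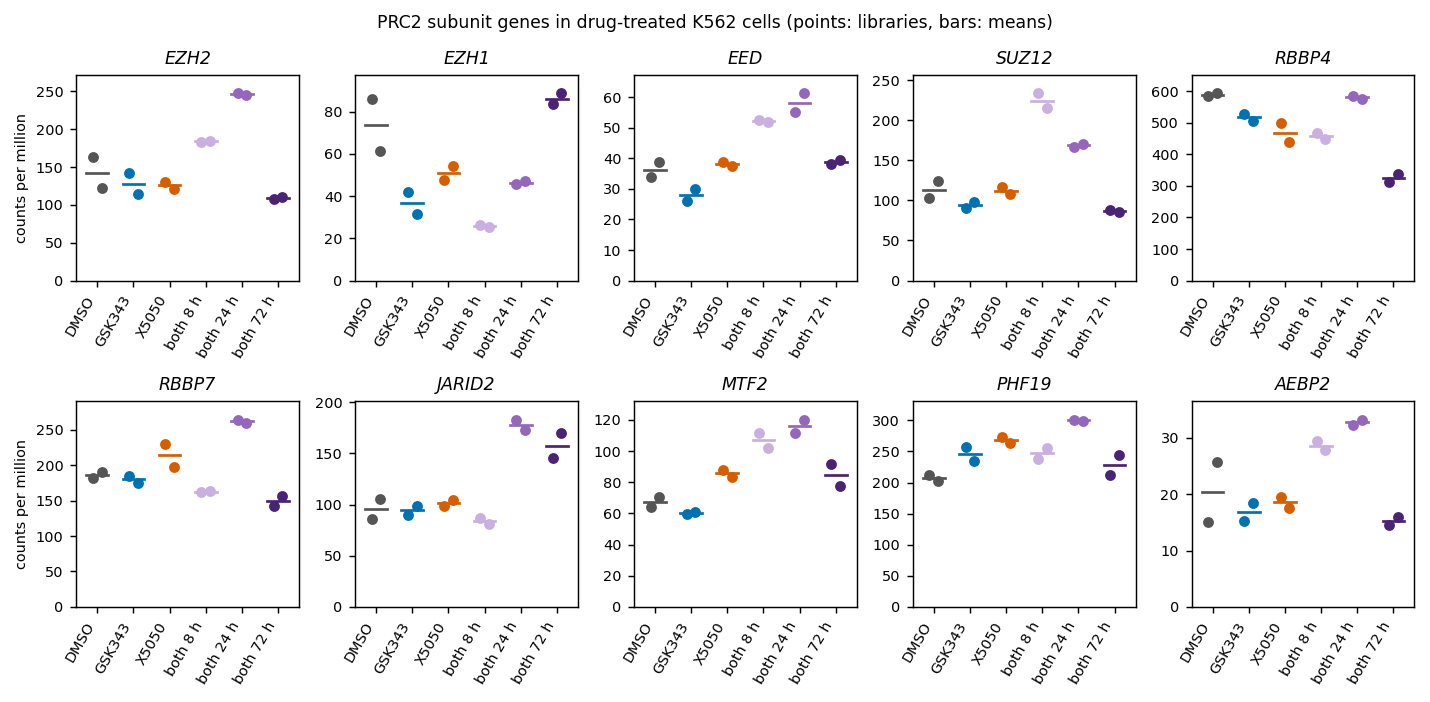
CPM (vertical axis, from 0) of the 10 PRC2 genes in the 12 drug libraries; points are libraries and bars the means of 2. EZH1 sinks to 26.4 and 25.4 CPM at 8 h of both drugs while SUZ12 reaches 234 and 215, and EZH2 peaks at 24 h with 247 and 245.

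SUZ12, the scaffold subunit, had the largest rise of the members at 8 h of both drugs. It had 103 and 124 CPM in DMSO, 90.6 and 98.1 with GSK343 and 117 and 108 with X5050. Both drugs brought it to 234 and 215 at 8 h, 166 and 171 at 24 h and 87.7 and 85.1 at 72 h. The 8 h and 24 h libraries lay above all others and the 72 h libraries below all others. The 8 h rise was 0.98 ± 0.11 (adjusted p = 6.6e-06) and the change from 24 h to 72 h was -0.96 ± 0.11 (adjusted p = 7.1e-06), both called in all alternative fits, the second at -0.56 ± 0.12 (adjusted p = 0.00145) with the GC trend removed. At 24 h it stood 0.57 ± 0.11 (adjusted p = 0.000766) against DMSO, lost with the GC trend removed (0.108). From 8 h to 24 h it had -0.41 ± 0.11 (adjusted p = 0.00958), lost without replicate 1 or 2 of both drugs at 24 h (0.0836 and 0.0617) and without replicate 1 of both drugs at 8 h (0.0935). Its pseudogene SUZ12P1 resembles it in sequence, so reads could be shared between them. SUZ12P1 had 21.7 and 17.4 CPM in DMSO and 14.03 and 12.02 at 8 h. The part of shared reads in the SUZ12 values was not tested.

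At 72 h the SUZ12 differences were small. Both drugs gave -0.13 ± 0.11 (adjusted p = 0.405) against GSK343, and the interaction was -0.11 ± 0.16 (adjusted p = 0.682). Against DMSO it had -0.39 ± 0.11 (adjusted p = 0.0132), lost without replicate 2 of DMSO (0.0941), without replicate 1 or 2 of both drugs at 72 h (0.0571 and 0.0894) and when fitted on the groups compared alone (0.0712). Against X5050 alone it had -0.38 ± 0.11 (adjusted p = 0.0194), lost without replicate 1 or 2 of both drugs at 72 h (0.0777 and 0.104) and without replicate 1 of X5050 (0.0608). With GSK343 alone it had -0.27 ± 0.11 (adjusted p = 0.147), which became a call without replicate 1 of DMSO (0.0172), and with X5050 alone -0.01 ± 0.11 (adjusted p = 0.955). X5050 against GSK343 gave 0.25 ± 0.11 (adjusted p = 0.133), a call without replicate 2 of X5050 (0.0495) and with the GC trend removed (0.0393).

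EED, the subunit that reads trimethylated lysine 27 and stimulates the enzyme, rose at 8 h and 24 h and was back near DMSO at 72 h. The libraries had 33.7 and 38.7 CPM in DMSO, 52.5 and 52.0 at 8 h of both drugs, 55.1 and 61.3 at 24 h and 38.3 and 39.3 at 72 h. GSK343 alone gave 26.0 and 30.1 and X5050 alone 38.8 and 37.3. The 8 h and 24 h pairs lay above all other libraries and the GSK343 pair below them. The rises were 0.53 ± 0.12 (adjusted p = 0.00197) at 8 h and 0.68 ± 0.12 (adjusted p = 0.000244) at 24 h and the change from 24 h to 72 h was -0.58 ± 0.12 (adjusted p = 0.000791). All 3 held with each library left out, and all 3 were lost with the GC trend removed, at 0.15 ± 0.12 (adjusted p = 0.344), 0.27 ± 0.12 (adjusted p = 0.0826) and -0.07 ± 0.12 (adjusted p = 0.69). EED has the lowest GC content of the members, 33.0%.

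EED had 0.15 ± 0.12 (adjusted p = 0.322) from 8 h to 24 h of both drugs, 0.10 ± 0.12 (adjusted p = 0.559) at 72 h against DMSO and 0.03 ± 0.12 (adjusted p = 0.891) at 72 h against X5050. Its values with the 2 single drugs lay apart. GSK343 had -0.37 ± 0.12 (adjusted p = 0.0567) against DMSO, a call without replicate 1 of DMSO (0.0178) and with the GC trend removed (0.0423), and X5050 had 0.07 ± 0.12 (adjusted p = 0.764). X5050 lay above GSK343 by 0.44 ± 0.12 (adjusted p = 0.0163), lost without replicate 1 of GSK343 (0.0989) and without replicate 1 of X5050 (0.0581). Both drugs at 72 h lay above GSK343 alone by 0.47 ± 0.12 (adjusted p = 0.00588), lost without replicate 1 of GSK343 (0.102), and the interaction of 0.40 ± 0.17 (adjusted p = 0.117) was a call only without replicate 1 of DMSO (0.0466) and with the GC trend removed (0.0444).

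RBBP4, the histone-binding subunit with the most reads of the 10, did not rise against DMSO at any time of both drugs and had the largest fall of the 10 against DMSO at 72 h. It had 585 and 593 CPM in DMSO, 528 and 505 with GSK343 and 499 and 438 with X5050. Both drugs gave 467 and 449 at 8 h, 586 and 576 at 24 h and 311 and 336 at 72 h. The 72 h pair lay below every other library of the arm. The 72 h change was -0.86 ± 0.10 (adjusted p = 1.02e-05) against DMSO, -0.84 ± 0.10 (adjusted p = 9.66e-06) against 24 h, -0.68 ± 0.10 (adjusted p = 0.000104) against GSK343 and -0.53 ± 0.10 (adjusted p = 0.00106) against X5050, and all 4 were called in every alternative fit. At 24 h RBBP4 had -0.02 ± 0.10 (adjusted p = 0.888), and at 8 h it fell by 0.36 ± 0.10 (adjusted p = 0.0094). The 8 h call was lost without replicate 1 or 2 of both drugs at 8 h (0.0721 and 0.0908) and was -0.57 ± 0.12 (adjusted p = 0.00127) with the GC trend removed.

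The other RBBP4 changes lay nearer the threshold. GSK343 had -0.19 ± 0.10 (adjusted p = 0.265), and X5050 against GSK343 had -0.14 ± 0.10 (adjusted p = 0.368). From 8 h to 24 h RBBP4 had 0.34 ± 0.10 (adjusted p = 0.0164), lost without replicate 1 or 2 of both drugs at 24 h (0.109 and 0.0886) and without replicate 1 or 2 of both drugs at 8 h (0.0898 and 0.117). With X5050 it had -0.33 ± 0.10 (adjusted p = 0.0466), lost without replicate 2 of DMSO (0.0762), without replicate 1 or 2 of X5050 (0.0825 and 0.371), with RLE size factors (0.0843), with no count filter (0.159), with the replicate block (0.0555), with the GC trend removed (0.166), on unstranded counts (0.0595) and when fitted on the groups compared alone (0.346). Its interaction was -0.34 ± 0.15 (adjusted p = 0.114), a call without replicate 2 of X5050 (0.0413) and by DESeq2 (0.0445).

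RBBP7, the paralog of RBBP4, peaked at 24 h. Its libraries had 183 and 189.9 CPM in DMSO, 162 and 164 at 8 h of both drugs, 265 and 259 at 24 h and 143 and 157 at 72 h. With GSK343 it had 185 and 175 and with X5050 230.2 and 198. The 24 h pair lay above all other libraries, and the 8 h pair and the 72 h pair lay below DMSO. The step up from 8 h to 24 h was 0.68 ± 0.11 (adjusted p = 0.000142) and the change from 24 h to 72 h was -0.80 ± 0.11 (adjusted p = 2.07e-05). Against X5050 alone it had -0.51 ± 0.11 (adjusted p = 0.00187) at 72 h. These 3 calls held in all alternative fits.

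Against DMSO, RBBP7 rose by 0.49 ± 0.11 (adjusted p = 0.00156) at 24 h, lost with the GC trend removed (0.0862). At 8 h it had -0.19 ± 0.11 (adjusted p = 0.16), which became a call with the GC trend removed (0.0192). At 72 h it had -0.31 ± 0.11 (adjusted p = 0.0316), lost without replicate 2 of DMSO (0.067), without replicate 1 or 2 of both drugs at 72 h (0.217 and 0.061), with the GC trend removed (0.0685) and when fitted on the groups compared alone (0.126). X5050 alone had 0.20 ± 0.11 (adjusted p = 0.251) and, against GSK343, 0.25 ± 0.11 (adjusted p = 0.114), the latter a call without replicate 2 of X5050 (0.0158) and with the GC trend removed (0.0131). GSK343 alone had -0.05 ± 0.11 (adjusted p = 0.828). Both drugs against GSK343 gave -0.27 ± 0.11 (adjusted p = 0.0606), a call on unstranded counts (0.0392). The interaction was -0.47 ± 0.15 (adjusted p = 0.0423), lost without replicate 1 or 2 of both drugs at 72 h (0.164 and 0.0685), without replicate 1 or 2 of GSK343 (0.101 and 0.0698), without replicate 1 of X5050 (0.119), with the replicate block (0.0521), with the GC trend removed (0.111) and when fitted on the groups compared alone (0.118).

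JARID2, the accessory subunit that helps PRC2 bind chromatin, was high at both 24 h and 72 h of both drugs. It had 86.1 and 106 CPM in DMSO, 89.8 and 98.9 with GSK343 and 99.1 and 105 with X5050. Both drugs gave 86.5 and 80.8 at 8 h, 183 and 173 at 24 h and 145 and 170.2 at 72 h. Both late groups lay above all other libraries, and the early group did not. The rise was 0.89 ± 0.12 (adjusted p = 2.82e-05) at 24 h and 0.72 ± 0.12 (adjusted p = 0.000263) at 72 h against DMSO, 1.09 ± 0.12 (adjusted p = 6.65e-06) from 8 h to 24 h, and -0.18 ± 0.12 (adjusted p = 0.257) from 24 h to 72 h, the last not a call. At 72 h both drugs exceeded GSK343 by 0.74 ± 0.12 (adjusted p = 0.000193) and X5050 by 0.63 ± 0.12 (adjusted p = 0.00106), the second at 0.40 ± 0.14 (adjusted p = 0.0319) with the GC trend removed. The called changes among these held in all alternative fits.

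Neither drug alone moved JARID2, with -0.02 ± 0.12 (adjusted p = 0.936) for GSK343 and 0.09 ± 0.12 (adjusted p = 0.7) for X5050. The interaction was 0.65 ± 0.17 (adjusted p = 0.0155), lost without replicate 2 of both drugs at 72 h (0.0826), without replicate 1 of GSK343 (0.103) and without replicate 1 of X5050 (0.0578). At 8 h JARID2 had -0.20 ± 0.12 (adjusted p = 0.212), a call without replicate 1 of DMSO (0.0392). X5050 against GSK343 gave 0.11 ± 0.12 (adjusted p = 0.57), a call with the GC trend removed (0.0381).

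AEBP2, which shares the JARID2 form of the complex, did not follow JARID2 at 72 h. It was the lowest member in each drug-arm group except both drugs at 8 h, where EZH1 was lower (26.4 and 25.4 CPM). AEBP2 had 15.1 and 25.7 CPM in DMSO, 15.2 and 18.5 with GSK343 and 19.6 and 17.6 with X5050. Both drugs gave 29.5 and 27.8 at 8 h, 32.2 and 33.2 at 24 h and 14.5 and 15.9 at 72 h. The DMSO replicates differed more than any other pair of this gene and spanned the single-drug values. AEBP2 fell from 24 h to 72 h, at -1.10 ± 0.19 (adjusted p = 0.000251), a call in all alternative fits and -0.70 ± 0.19 (adjusted p = 0.00739) with the GC trend removed. Its rises against DMSO were 0.49 ± 0.19 (adjusted p = 0.0496) at 8 h, lost without replicate 1 or 2 of both drugs at 8 h (0.16 and 0.107), without replicate 1 of DMSO (0.489), with RLE size factors (0.0508), with the GC trend removed (0.438) and when fitted on the groups compared alone (0.137), and 0.68 ± 0.19 (adjusted p = 0.00884) at 24 h, lost without replicate 2 of both drugs at 24 h (0.051), without replicate 1 of DMSO (0.0994), with the GC trend removed (0.132) and when fitted on the groups compared alone (0.0617). Without replicate 2 of DMSO they were 0.92 ± 0.17 (adjusted p = 0.00026) and 1.12 ± 0.17 (adjusted p = 4e-05). At 72 h it had -0.42 ± 0.20 (adjusted p = 0.106), a call without replicate 1 of DMSO (0.00103) and with no count filter (0.0311), and with GSK343 -0.27 ± 0.19 (adjusted p = 0.409), a call without replicate 1 of DMSO (0.0103).

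The other AEBP2 comparisons gave no call in any fit. X5050 had -0.13 ± 0.19 (adjusted p = 0.716) against DMSO and 0.14 ± 0.19 (adjusted p = 0.666) against GSK343. From 8 h to 24 h of both drugs AEBP2 had 0.19 ± 0.19 (adjusted p = 0.446). Both drugs at 72 h had -0.15 ± 0.20 (adjusted p = 0.578) against GSK343 and -0.29 ± 0.20 (adjusted p = 0.293) against X5050, and the interaction was -0.01 ± 0.27 (adjusted p = 0.981).

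MTF2, a Polycomb-like protein that binds unmethylated CpG-rich DNA, rose early and stayed up. The libraries had 63.8 and 70.4 CPM in DMSO, 112 and 102 at 8 h of both drugs, 112 and 120.2 at 24 h and 91.4 and 77.6 at 72 h. GSK343 alone gave 59.9 and 60.9 and X5050 alone 87.9 and 83.4. All libraries with X5050, alone or combined, lay above those with DMSO or GSK343. The rises were 0.67 ± 0.11 (adjusted p = 0.000189) at 8 h and 0.79 ± 0.11 (adjusted p = 4.16e-05) at 24 h, called in all alternative fits and 0.36 ± 0.11 (adjusted p = 0.0199) and 0.46 ± 0.11 (adjusted p = 0.00472) with the GC trend removed. X5050 exceeded GSK343 by 0.50 ± 0.11 (adjusted p = 0.005), also called throughout. Against DMSO the X5050 value was 0.35 ± 0.11 (adjusted p = 0.0524), just short of a call, and it became one without replicate 2 of DMSO (0.0372), without replicate 2 of X5050 (0.0434), by DESeq2 (0.0219), with RLE size factors (0.0377), with no count filter (0.04), with the GC trend removed (0.0375) and on unstranded counts (0.0493).

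At 72 h of both drugs MTF2 had 0.33 ± 0.11 (adjusted p = 0.0307) against DMSO, lost without replicate 1 of DMSO (0.129), without replicate 1 of both drugs at 72 h (0.292), by DESeq2 (0.0556), with no count filter (0.112), on unstranded counts (0.0548) and when fitted on the groups compared alone (0.136). It was above GSK343 alone by 0.48 ± 0.11 (adjusted p = 0.0031), lost without replicate 1 of both drugs at 72 h (0.0585), and against X5050 alone it had -0.02 ± 0.11 (adjusted p = 0.919). From 24 h to 72 h it had -0.46 ± 0.11 (adjusted p = 0.00336), lost without replicate 2 of both drugs at 72 h (0.0527) and with the GC trend removed (0.768). The interaction was 0.13 ± 0.16 (adjusted p = 0.618). GSK343 alone had -0.15 ± 0.11 (adjusted p = 0.439), and from 8 h to 24 h of both drugs MTF2 had 0.12 ± 0.11 (adjusted p = 0.435).

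PHF19, the other Polycomb-like protein of the list, lay above DMSO in nearly every treated library. It had 212 and 203 CPM in DMSO, 257 and 234 with GSK343 and 273 and 264 with X5050. Both drugs gave 238 and 256 at 8 h, 301 and 299.6 at 24 h and 212 and 245 at 72 h. Only 1 treated library, replicate 1 of both drugs at 72 h, lay under the higher DMSO library. The 24 h rise was 0.53 ± 0.11 (adjusted p = 0.000883), a call in all alternative fits. From 24 h to 72 h PHF19 had -0.40 ± 0.11 (adjusted p = 0.00675), lost without replicate 1 of both drugs at 72 h (0.107) and -1.02 ± 0.12 (adjusted p = 8.25e-06) with the GC trend removed. With X5050 it had 0.37 ± 0.11 (adjusted p = 0.0345), lost without replicate 2 of DMSO (0.079), without replicate 1 of X5050 (0.128) and when fitted on the groups compared alone (0.208).

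The remaining PHF19 differences sat near the threshold. At 8 h it had 0.25 ± 0.11 (adjusted p = 0.0734), a call with the GC trend removed (0.00171) and on unstranded counts (0.0432). From 8 h to 24 h it had 0.28 ± 0.11 (adjusted p = 0.0505), a call by DESeq2 (0.0492) and when fitted on the groups compared alone (0.00135). Both drugs against X5050 gave -0.23 ± 0.11 (adjusted p = 0.115), a call by DESeq2 (0.0436) and with the GC trend removed (0.000641), and X5050 against GSK343 gave 0.13 ± 0.11 (adjusted p = 0.435), a call with the GC trend removed (0.0186). Its interaction was -0.48 ± 0.15 (adjusted p = 0.0393), lost without replicate 2 of DMSO (0.0541), without replicate 1 of both drugs at 72 h (0.181), without replicate 1 or 2 of GSK343 (0.109 and 0.051), without replicate 1 of X5050 (0.0694) and when fitted on the groups compared alone (0.109). PHF19 had 0.24 ± 0.11 (adjusted p = 0.166) with GSK343 and 0.14 ± 0.11 (adjusted p = 0.351) with both drugs at 72 h, the latter below each single-drug value. Both drugs against GSK343 gave -0.10 ± 0.11 (adjusted p = 0.471).

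GC content moved with the changes at 8 h and 24 h and was checked gene by gene. The longest transcripts of the members range from 33.0% GC in EED, 37.9% in MTF2, 38.0% in SUZ12 and 38.2% in AEBP2 to 50.2% in JARID2, 50.5% in EZH1 and 57.9% in PHF19. With a smooth GC trend removed from each library, 4 members instead of 8 rose at 24 h (EZH2, JARID2, MTF2 and PHF19) and EZH1 still fell. At 8 h, 3 rose (SUZ12, MTF2 and PHF19) and 3 fell (EZH1, RBBP4 and RBBP7), instead of 5 and 2. On this scale 17.8% of all tested genes were higher and 18.5% lower at 24 h, and 19.5% and 17.4% at 8 h. From 24 h to 72 h, 6 fell instead of 8 (over all tested genes 13.2% higher and 22.6% lower), and at 72 h against DMSO 2 higher and 3 lower were called (over all tested genes 14.8% higher and 23.4% lower). The same step moved the median change of all tested genes to -0.15 for GSK343, -0.14 at 72 h of both drugs, -0.08 from 24 h to 72 h, -0.13 for both drugs against X5050, 0.18 for X5050 against GSK343, -0.10 for S2KO and -0.12 in DKO, and shifted it by less than 0.1 in the other comparisons; values with the trend removed are to be read against these. EZH1 and JARID2 kept nearly the same values at 24 h, -0.65 ± 0.14 (adjusted p = 0.0022) and 0.89 ± 0.14 (adjusted p = 9e-05). The joint rise at 24 h is smaller on this scale, and the shift of EZH2 there is 0.60 ± 0.14 (adjusted p = 0.003).

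**Figure D3:**
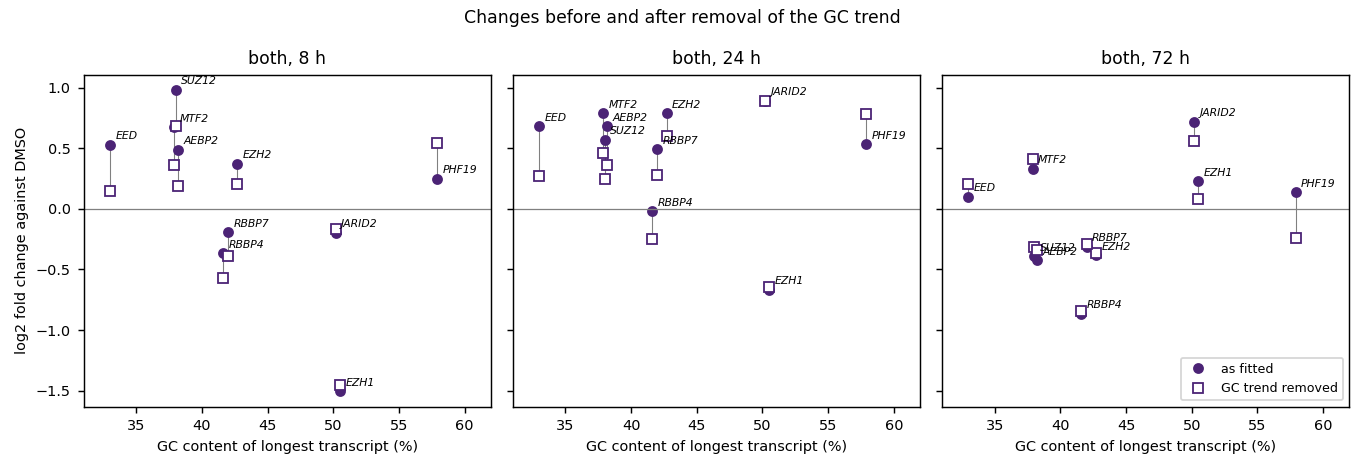
Log2 fold change against 72 h DMSO (vertical axis) over GC content of the longest transcript (horizontal axis) for both drugs at 8, 24 and 72 h; circles are the values as fitted and squares those with the GC trend removed. At 24 h the squares of the 7 members from 33.0% to 42.7% GC lie below their circles, that of PHF19 lies above, and those of EZH1 and JARID2 coincide.

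Other Polycomb genes and genes of the dividing cell were counted from lists written with earlier results of these data known. Their counts stand beside shares over all tested genes of 21.8% higher and 21.2% lower at 8 h, 22.0% and 21.1% at 24 h and 19.2% and 17.3% at 72 h, so a list with about 1 gene in 5 called each way is like all genes. PHF1, a further Polycomb-like protein, had -0.87 ± 0.15 (adjusted p = 0.000306) at 8 h, 0.46 ± 0.15 (adjusted p = 0.0226) at 24 h and 1.14 ± 0.15 (adjusted p = 3.38e-05) at 72 h, so that it fell first and then rose. LCOR, which belongs to an accessory form of PRC2, rose at 8 h by 0.81 ± 0.15 (adjusted p = 0.000517) and at 24 h by 0.52 ± 0.15 (adjusted p = 0.0119). These were the only called ones of 4 tested further PRC2-associated genes against DMSO at those times.

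Of 25 tested genes of PRC1, the complex that ubiquitinates histone H2A, 9 rose and 3 fell at 8 h of both drugs, 8 rose and 9 fell at 24 h and 7 rose and 3 fell at 72 h, with medians of 0.29, -0.07 and 0.12. BMI1 rose by 1.29 ± 0.17 (adjusted p = 2.4e-05) and E2F6 by 1.08 ± 0.11 (adjusted p = 2.36e-06) at 8 h. PHC2 rose by 1.23 ± 0.12 (adjusted p = 7.78e-07) at 24 h, when CBX2, a chromodomain subunit, fell by 1.11 ± 0.14 (adjusted p = 1.21e-05). GSK343 alone raised PHC2 by 0.98 ± 0.12 (adjusted p = 5.97e-05), while 1 rose and 5 fell in all (9.12% of all tested genes higher and 3.31% lower). With X5050, 2 rose and 1 fell (5.34% of all tested genes higher and 7.23% lower). The one that fell was SCMH1, at -0.63 ± 0.11 (adjusted p = 0.00212).

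Of 7 tested genes for lysine 27 demethylases and H2A deubiquitinase subunits, 1 rose and 2 fell at 8 h, 2 rose and 3 fell at 24 h and 2 rose and 0 fell at 72 h of both drugs, which for 7 genes is near the shares over all genes. KDM6A, a demethylase, rose by 0.61 ± 0.12 (adjusted p = 0.000723) at 24 h and by 0.78 ± 0.12 (adjusted p = 0.000118) at 72 h. KDM6B, the other one, fell by 0.72 ± 0.16 (adjusted p = 0.00182) at 8 h and rose by 0.49 ± 0.16 (adjusted p = 0.0244) at 72 h. With GSK343 alone their median was -0.15. ASXL2 rose by 0.71 ± 0.13 (adjusted p = 0.000379) at 8 h and by 0.92 ± 0.13 (adjusted p = 3.64e-05) at 24 h.

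Genes for the other partners of RBBP4 and RBBP7, which belong to deacetylase, remodelling and chromatin assembly complexes, were counted against the same shares. Of 20 tested, 8 rose and 2 fell at 8 h, 9 rose and 2 fell at 24 h and 2 rose and 7 fell at 72 h, and from 24 h to 72 h 1 rose and 12 fell (24.1% of all tested genes higher and 21.8% lower). CHD4 rose by 0.82 ± 0.12 (adjusted p = 3.7e-05) at 24 h and HDAC2 by 0.64 ± 0.10 (adjusted p = 0.000121) at 8 h. The chromatin assembly subunits CHAF1A and CHAF1B fell to log2 -0.92 ± 0.11 (adjusted p = 1.13e-05) and -0.87 ± 0.12 (adjusted p = 3.6e-05) against DMSO at 72 h, in the same libraries in which RBBP4, their partner, had 311 and 336 CPM.

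Many genes under E2F control and other genes of dividing cells fell at 72 h, with each drug and with both. Of 29 tested, 0 rose and 12 fell with GSK343 (median -0.34), beside 9.12% of all tested genes higher and 3.31% lower. X5050 had 0 and 13 (median -0.35), beside 5.34% and 7.23%. Both drugs had 0 and 24 (median -0.78), beside 19.2% and 17.3%. With the GC trend removed the GSK343 shares were 7.40% higher and 12.5% lower, and the list counts are from the fit without that step. CDC6, which licenses replication origins, fell by 1.34 ± 0.12 (adjusted p = 5.49e-07) and RRM1, a ribonucleotide reductase subunit, fell by 1.07 ± 0.11 (adjusted p = 1.63e-06) at 72 h of both drugs. At 8 h 6 rose and 10 fell and at 24 h 6 rose and 12 fell: CCNE2, a cyclin, rose by 2.13 ± 0.18 (adjusted p = 5.26e-07) at 8 h while CDT1 fell by 1.43 ± 0.11 (adjusted p = 3.2e-07). From 24 h to 72 h 4 rose and 19 fell (24.1% of all tested genes higher and 21.8% lower). TOP2A was among them, at -1.46 ± 0.13 (adjusted p = 4.85e-07). EZH2, itself known as an E2F-regulated gene, had 108 and 111 CPM at 72 h in these libraries. The part that cell division plays in the EZH2 values was not tested.

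The genes whose levels ran most like EZH2 and EZH1 were found by Pearson's r of log2 CPM over the 12 drug libraries, among the 10859 coding genes whose average was 2 CPM or more. For EZH2 they were DENND4A (r = 0.956), ZNF121 (0.951), UGDH (0.947), MSL3 (0.946) and SSBP1 (0.946). For EZH1 they were TTC7A (0.919), NLRP1 (0.918), ERAP2 (0.918), CCNL2 (0.916) and GMIP (0.913). No gene is on both lists of 5. The libraries come in 6 groups that share treatments, so these are descriptions of 6 levels and not of 12 independent points.

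The excision arm shows the levels per transcript length, as kallisto's length-corrected TPM, summed per gene. In EV cells the order was RBBP4 (138 ± 1.81, SD, n = 2), PHF19 (129 ± 63.1), RBBP7 (81.7 ± 26.1), EZH2 (53.8 ± 7.42), MTF2 (34.3 ± 8.81), SUZ12 (24.2 ± 3.55), EED (20.7 ± 6.82), EZH1 (17.2 ± 3.35), JARID2 (10.6 ± 0.384) and AEBP2 (8.53 ± 0.287). Neighbours overlapped between RBBP4 and PHF19, PHF19 and RBBP7, SUZ12 and EED, and EED and EZH1, so their order is not resolved. EZH2 exceeded EZH1 in both EV libraries, with ratios of TPM of 3.97 and 2.48, and in DKO by 3.13 and 3.25. The high TPM of PHF19 came from a short form, PHF19-201 of 836 bases, which held 73.6% and 58.9% of the gene's TPM in EV, while the full-length PHF19-202 held 14.2% and 23.0%.

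**Figure D4:**
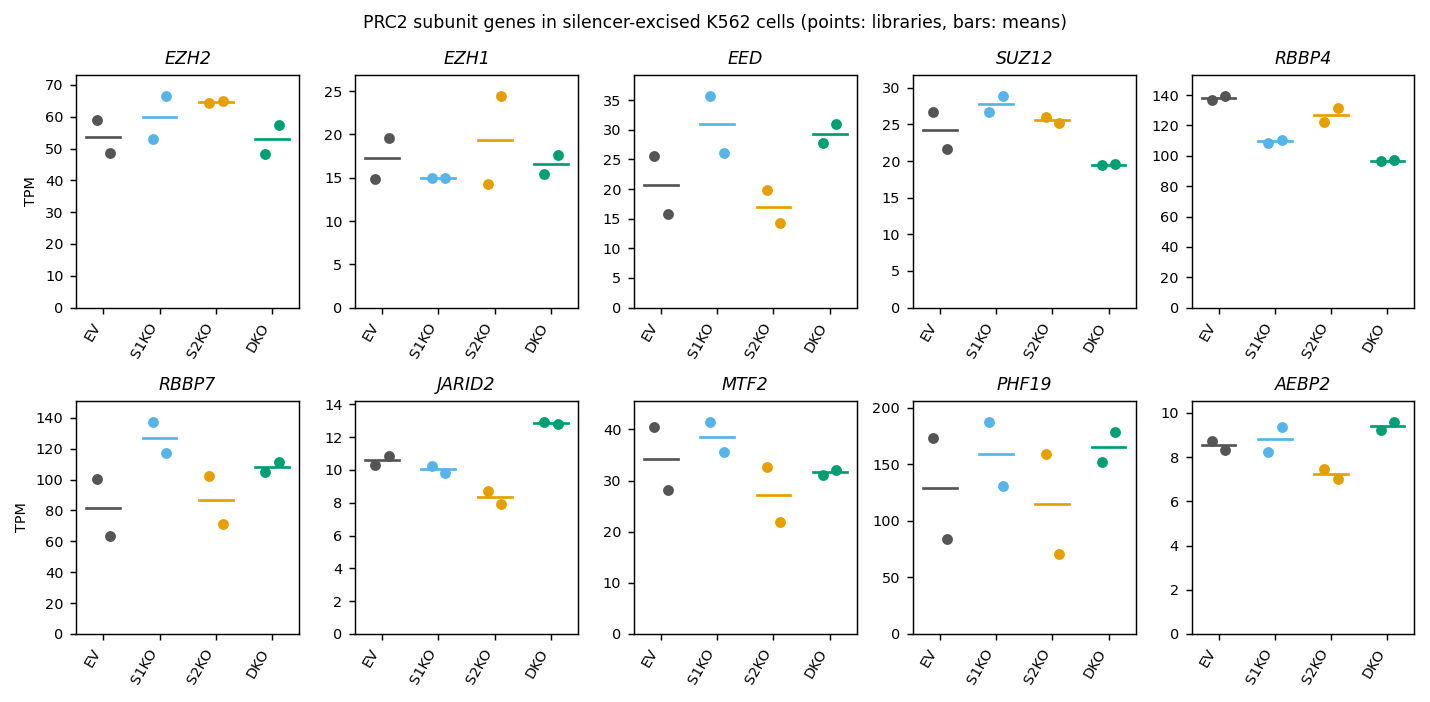
TPM (vertical axis, from 0) of the 10 PRC2 genes in the 8 excision libraries; points are libraries and bars the means of 2. RBBP4 is lower in both DKO libraries (96.6 and 97.1) than in both EV libraries (137 and 139.6), and the EV points of PHF19, RBBP7 and EED lie far apart.

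In the excision arm the test called 1 member, RBBP4 in DKO, which fell. It had 401 and 399 CPM in EV, 298 and 275 for S1KO, 359 and 368 for S2KO and 247 and 237 in DKO. The 4 groups did not overlap, with EV the highest and DKO the lowest. The DKO change was -0.73 ± 0.13 (SE), edgeR adjusted p = 0.0163, and it was the only call among the 10 (5.41% of all tested genes higher and 3.35% lower). A count of 1 member in 10 is close to such shares and is no result about the members. The RBBP4 call is described as that of a single gene. This call was lost without replicate 1 or 2 of DKO, without replicate 2 of EV and when fitted on the groups compared alone (0.0529). In S1KO the value was -0.48 ± 0.13 (adjusted p = 0.105), which DESeq2 called (0.0307), and in S2KO -0.14 ± 0.13 (adjusted p = 0.845). The DKO libraries had 10.11% and 9.58% of estimated counts in unmatched transcripts, and the other libraries of the arm 11.49% to 12.19%. Their depth and replicate deviations, given below, also set them apart. A difference in handling, of which the labels say nothing, cannot be told apart from the excision.

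In S1KO edgeR called 0 of the 10 members (2.44% of all tested genes higher and 1.23% lower); 1, RBBP4, had an unadjusted p under 0.05, and DESeq2 called 1. In S2KO edgeR called 0 as well (1.45% of all tested genes higher and 0.554% lower); 1, JARID2, had an unadjusted p under 0.05, and DESeq2 called 0. In DKO 2, RBBP4 and SUZ12, had an unadjusted p under 0.05. With the GC trend removed the DKO shares over all tested genes were 4.95% higher and 5.75% lower. The biological coefficient of variation over all tested genes was 0.323 here and 0.129 in the drug arm, so changes of the size seen with the drugs could be missed. The members differed in this. In DKO the SE was 0.13 for RBBP4 and JARID2, 0.14 for SUZ12 and 0.17 for EZH2 and AEBP2. For RBBP7, MTF2, EED, PHF19 and EZH1 it was 0.23 to 0.35. With simulated 2-fold changes in 100 genes, the test of DKO against EV called 4. The same check for GSK343 against DMSO called 83. A member without a call in DKO is therefore not shown to be unchanged. Same-numbered libraries of EV, S1KO and S2KO deviated from their group means together, with correlations of 0.488 to 0.622, and DKO did not (-0.084 to -0.059). A fit of EV, S1KO and S2KO alone with the replicate block, added after the data were seen, called 3 members in S1KO: EED at 0.45 ± 0.11 (adjusted p = 0.0243), RBBP7 at 0.54 ± 0.12 (adjusted p = 0.0128) and RBBP4 at -0.51 ± 0.11 (adjusted p = 0.0113). In that fit 0 members were called in S2KO, where 3 had an unadjusted p under 0.05, the lowest being JARID2 at -0.40 ± 0.12 (adjusted p = 0.0689). Over all 20633 genes it tested, 1639 were higher and 1546 lower in S1KO, and 1093 were higher and 788 lower in S2KO.

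EZH2 had 206 and 181 CPM in EV, 175 and 219 for S1KO, 224 and 235 for S2KO and 160.1 and 182 in DKO. The changes were 0.03 ± 0.17 (adjusted p = 0.971), 0.25 ± 0.17 (adjusted p = 0.705) and -0.17 ± 0.17 (adjusted p = 0.576), and only the S2KO pair lay apart from EV. SUZ12 had 164 and 141 CPM in EV and 113 and 112 in DKO, with no overlap and -0.44 ± 0.14 (adjusted p = 0.103), and changes of 0.06 ± 0.14 (adjusted p = 0.901) in S1KO and 0.09 ± 0.14 (adjusted p = 0.942) in S2KO. JARID2 had 82.1 and 91.5 CPM in EV, 76.7 and 72.4 for S1KO, 69.1 and 64.4 for S2KO and 98.1 and 93.4 in DKO. With -0.22 ± 0.13 (adjusted p = 0.537) for S1KO, it lay lowest in S2KO, at -0.38 ± 0.13 (adjusted p = 0.313), and highest in DKO, at 0.14 ± 0.13 (adjusted p = 0.568). AEBP2 had 30.6 and 26.0 CPM in EV and 24.2 and 23.4 in DKO, with -0.25 ± 0.17 (adjusted p = 0.421), and changes of -0.09 ± 0.17 (adjusted p = 0.884) in S1KO and -0.28 ± 0.17 (adjusted p = 0.655) in S2KO.

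For 5 genes the replicates of EV and of S2KO lay far apart. EV had 296 and 193 CPM for PHF19, 262 and 179 for RBBP7, 137 and 92.8 for MTF2 and 64.2 and 42.6 for EED, replicate 1 first and each time the higher. S2KO repeated this with 273 and 171, 274 and 199.98, 111 and 79.4 and 50.8 and 37.4, and S1KO had 291 and 255, 342 and 297, 127 and 115 and 82.7 and 63.3. EZH1 ran the other way, with 45.3 and 73.8 CPM in EV and 46.3 and 91.5 in S2KO, replicate 2 the higher, against 46.0 and 48.4 in S1KO. In DKO the same genes had close replicates, such as 47.8 and 47.2 CPM for EZH1 and 277 and 284 for RBBP7. The labels name no batch for these libraries. In DKO these genes had -0.33 ± 0.35 (adjusted p = 0.621) for EZH1, 0.39 ± 0.26 (adjusted p = 0.409) for EED, 0.35 ± 0.23 (adjusted p = 0.42) for RBBP7, -0.18 ± 0.24 (adjusted p = 0.696) for MTF2 and 0.07 ± 0.28 (adjusted p = 0.903) for PHF19, none of them a call. In S1KO and S2KO EED had 0.45 ± 0.26 (adjusted p = 0.506) and -0.28 ± 0.26 (adjusted p = 0.857), on opposite sides of EV. RBBP7 had 0.54 ± 0.23 (adjusted p = 0.354) and 0.10 ± 0.23 (adjusted p = 0.977), MTF2 0.08 ± 0.24 (adjusted p = 0.935) and -0.27 ± 0.24 (adjusted p = 0.838), PHF19 0.16 ± 0.28 (adjusted p = 0.88) and -0.14 ± 0.28 (adjusted p = 0.97), and EZH1 -0.34 ± 0.35 (adjusted p = 0.764) and 0.21 ± 0.35 (adjusted p = 0.949).

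Transcript shares add a second view of RBBP4. The coding transcript RBBP4-206 made up 34.1% and 35.4% of the gene's TPM in EV, 32.5% and 32.3% for S1KO, 31.2% and 30.4% for S2KO and 24.1% and 24.2% in DKO. RBBP4-203, annotated as a retained intron, made up 14.0% and 17.6% in EV, 15.9% and 18.2% for S1KO, 16.2% and 17.4% for S2KO and 25.6% and 26.5% in DKO. DKO stood below the other 3 groups for the first and above them for the second. RBBP4-214, annotated for nonsense-mediated decay, was also lower, at 25.0% and 24.7% in DKO against 27.3% to 30.1% in the other groups. In TPM, RBBP4-206 had 46.8 and 49.5 in EV and 23.3 and 23.5 in DKO. RBBP4-203 differed less in TPM, with 19.2 and 24.6 in EV and 24.8 and 25.7 in DKO. The long coding transcript RBBP4-202 had 11.5% and 8.86% in EV and 11.1% and 10.8% in DKO, which overlap. These shares are kallisto estimates from short reads, and no test was made on them. They were computed for the members only, so a shift of many genes in DKO cannot be told apart.

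**Figure D5:**
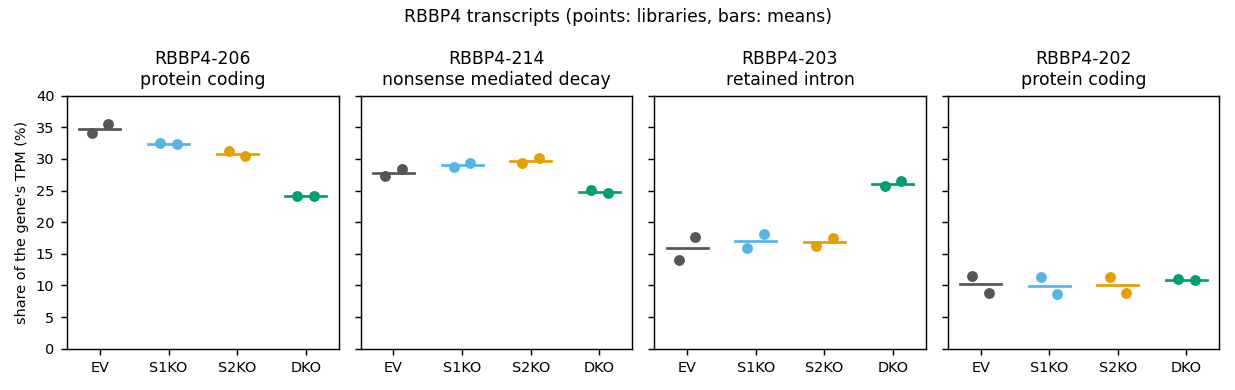
Share of the TPM of RBBP4 (vertical axis, in percent, from 0) held by its 4 leading transcripts in the 8 excision libraries; points are libraries and bars the means of 2. In DKO the coding RBBP4-206 lies at 24.1% and 24.2% and the intron-retaining RBBP4-203 at 25.6% and 26.5%.

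Among the leading transcripts of each member, at most 6 a gene and 55 in all, the share in both DKO libraries lay outside the range of the other 6 libraries for 19, from 8 members, above it for 10 and below it for 9. PHF19 and SUZ12 had none. Shares were computed for the members only, so no share over all transcripts stands beside this count. It is no result about the members. The DKO libraries also held fewer estimated counts (55913561 and 59444378) than the other libraries of the arm (76457904 or more). The examples given here were chosen after their values were seen. RBBP7-203, a coding transcript, held 42.6% and 38.3% of RBBP7 in EV, 43.4% and 49.3% for S1KO, 45.1% and 43.0% for S2KO and 56.5% and 56.4% in DKO. AEBP2-202, coding, held 27.5% and 25.4% of AEBP2 in EV, 24.9% and 25.4% for S1KO, 31.7% and 24.7% for S2KO and 13.1% and 15.4% in DKO. JARID2-202, the shorter of its coding transcripts, held 12.1% and 12.9% in EV, 12.2% and 18.5% for S1KO, 16.1% and 14.9% for S2KO and 4.80% and 7.51% in DKO. EED-201, the leading coding form, held 35.1% and 39.9% of EED in EV and 42.6% and 45.9% in DKO. The gap was small for EZH2-203, a coding form, which held 47.5% and 41.8% of EZH2 in EV, 47.8% and 45.8% for S1KO, 43.1% and 45.6% for S2KO and 48.9% and 48.8% in DKO. SUZ12-201 held 77.7% and 75.9% of SUZ12 in EV and 76.4% and 83.3% in DKO, which overlap. EZH1 had a large share of intron-retaining forms in every group, and 3 of them lay apart in DKO. EZH1-210 was lower there, with 31.3% and 27.2% in EV and 24.1% and 23.4% in DKO. EZH1-208 was higher, with 11.3% and 9.96% in EV and 14.5% and 12.3% in DKO, and so was EZH1-203, with 6.29% and 2.23% and 7.30% and 8.20%.

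Among the further Polycomb genes few were called in DKO (5.41% of all tested genes higher and 3.35% lower). Counts of 1 or 2 genes in lists of 20 or 25 are near such shares and are no result about the lists. Of 25 tested PRC1 genes 2 fell, PHC1, at -1.80 ± 0.27 (adjusted p = 0.00996), and PHC2, at -0.69 ± 0.13 (adjusted p = 0.025), both polyhomeotic subunits. Of 20 partners of RBBP4 and RBBP7, ASF1A, a histone chaperone, rose by 0.77 ± 0.16 (adjusted p = 0.0351) in DKO and GATAD2B, a subunit of the NuRD remodelling complex, fell by 1.17 ± 0.21 (adjusted p = 0.0179). The 29 genes of dividing cells had a median of 0.10 in DKO.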

How the data were processed

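The authors deposited STAR gene counts for the 12 drug libraries; for the 8 excision libraries they deposited TPM and estimated counts of each transcript from kallisto. Per the submitters' processing notes the build was hg19 and the tools were Trimmomatic 0.38, STAR 2.7.3a and kallisto 0.44.0; the annotation release is not given in the sources used here. Per the labels' protocols the libraries were stranded, and the reverse-strand column, 8.01 to 9.77 times the forward one, was used. Estimated counts were summed per gene with GENCODE 29 (182235 of 215170 transcripts matched, leaving out 9.58% to 12.19% of estimated counts) and rounded.

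edgeR 4.0.16 under R 4.3.3 fitted each arm alone with 1 mean for each group, using filterByExpr, TMM factors, robust quasi-likelihood test and Benjamini-Hochberg adjustment over 19224 (drug) and 21284 (excision) genes, with 0.05 as threshold. Residual degrees of freedom were 6 and 4. Each SE was derived as the fitted change over the square root of F. Where nothing says how replicates were cultured beyond "biological", p measures the spread between these libraries. A replicate block on EV, S1KO and S2KO alone was added after the data were seen. Every library was also left out in turn, and further fits used a replicate block, a GC trend removed by loess (span 0.3, GC known for 96.2% of tested drug genes), the compared groups alone, counts ignoring strand, counts from length-scaled TPM, unfiltered genes, RLE factors or DESeq2 1.42.0. The code was checked on simulated data with known 2-fold and 4-fold changes, 100 genes of each size. For GSK343 against DMSO the test called 83 and 99 of them. For DKO against EV it called only 4 and 71. Calls among unchanged genes numbered 17 and 8. The rule for named genes was all 10 members in every comparison and, of each further list, up to 3 called genes with the lowest p. The members and lists were chosen with earlier results of these data known. EPOP, PCGF2 and UHRF1 were not matched by symbol. Promoter sequences came from RefSeq; GENCODE 29 is on another build, so none of its coordinates were used.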

Additional observations from a re-analysis of the deposited data

Results flagged for a closer look

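The effect of GSK343 at 72 h differed with and without X5050 for 4 members, by edgeR's test of the interaction. EZH1 had 1.76 on the log2 scale: GSK343 took it from 86.0 and 61.3 to 42.0 and 31.3 CPM without X5050, and with X5050 present it went from 47.6 and 54.4 to 83.7 and 88.7 CPM. This value stayed called in all 15 alternative fits. JARID2 had 0.65, from 86.1 and 105.5 to 89.8 and 98.9 CPM without X5050 and from 99.1 and 104.8 to 145.1 and 170.2 CPM with it. PHF19 had -0.48 and RBBP7 -0.47; both were lower with both drugs than with X5050 alone, while GSK343 alone left PHF19 at 257 and 234 CPM and RBBP7 at 185 and 175 CPM. JARID2, PHF19 and RBBP7 each lost the call without some single libraries, given beside their values above. Groups of 2 libraries are too small to single out an outlying library.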

How the results depend on the processing

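Of 59 calls among 140 pairs of a member and a comparison, 29 held in every alternative fit, 34 with each library left out and 46 with the GC trend removed. Over 1600 alternative values of single members, 1386 kept direction and side of the threshold, 102 lost a call, 37 gained one, and 75 changed sign without a call on either side; no called value changed sign. Removing the GC trend moved the number of members called from 1 to 2 for GSK343, from 9 to 5 at 24 h of both drugs and from 3 to 7 for X5050 against GSK343. The shares of all tested genes moved too. For GSK343 they went from 9.12% higher and 3.31% lower to 7.40% and 12.5%. At 24 h they went from 22.0% and 21.1% to 17.8% and 18.5%. For X5050 against GSK343 they went from 6.85% and 14.3% to 20.4% and 10.6%. Fitting only the groups compared, with fewer libraries to estimate the spread, gave 0 in place of 3 for X5050, 2 in place of 6 at 72 h of both drugs, 2 in place of 4 for the interaction and 0 in place of 1 in DKO. In these comparisons that fit also called fewer of all tested genes. It called 290 higher and 327 lower for X5050, in place of 1026 and 1389. At 72 h it called 2789 and 2302 in place of 3688 and 3317. The interaction had 1294 and 1020 in place of 1875 and 1738, and DKO 996 and 483 in place of 1152 and 713. DESeq2 called 1 member in S1KO in place of 0, and over all tested genes 988 higher and 666 lower in place of 520 and 261.

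With each library left out in turn, the number called ranged from 1 to 4 for GSK343, 0 to 2 for X5050, 2 to 6 at 72 h, 4 to 7 at 8 h and 8 to 9 at 24 h of both drugs. It ranged from 3 to 4 for 24 h against 8 h, 8 to 9 for 72 h against 24 h, 4 to 5 for both drugs against GSK343 and against X5050, 2 to 4 for X5050 against GSK343, 1 to 5 for the interaction and 0 to 1 in DKO, and was 0 in S1KO and S2KO. The calls over all tested genes changed between these fits too, so the ranges are no trait of the members. A comparison with 1 library left in a group assumes that it varies like the other groups.

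The replicate numbers of the titles were also fitted as a replicate block. The correlation of same-numbered deviations ran from -0.055 to 0.233 over the drug groups and from -0.084 to 0.622 over the excision groups (0.488 to 0.622 among EV, S1KO and S2KO), and the labels give the numbers no meaning, so the fits without the block are the main ones. In S1KO and S2KO p-values without the block ignore that shared deviation. With the replicate block 2 members in place of 3 were called for X5050 (RBBP4 lost) and 3 in place of 4 for the interaction (RBBP7 lost), and the number called in each other comparison was as without it: 1 for GSK343, 7, 9 and 6 at 8, 24 and 72 h, and 1 in DKO. Over all genes the block raised the calls in S1KO from 520 higher and 261 lower to 818 and 530, in S2KO from 309 and 118 to 510 and 206, and in DKO from 1152 and 713 to 1783 and 1389. With EV, S1KO and S2KO fitted alone with the replicate block, an alternative added after the data were seen, 3 members in place of 0 were called in S1KO and 0 in S2KO. Of the 20633 genes tested in that fit, 1639 were higher and 1546 lower in S1KO, and 1093 and 788 in S2KO. The smallest value of a member was 332 counts.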
